A study of Mus musculus with 8 samples.

Results

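The prolactin receptor, the STAT5 pathway below it and the enzymes of serotonin synthesis were followed in isolated islets as 10 genes: Prlr, Ghr, Tph1, Tph2, Cish, Socs2, Stat5a, Stat5b, Lonrf3 and Serpina7. Lonrf3 and Serpina7 encode no receptor, STAT5 factor or serotonin enzyme, and their link to the pathway was not tested. All probes that the deposited table assigns to these symbols were taken, which gave 23 probes for 10 of the 26894 genes named on the array. The genes were selected on the measured values of the same contrast as well as on their place in the pathway, so their differences are given as a description without a p-value. Islets of βUCP2Tg mice, which overexpress the mitochondrial carrier UCP2 in β-cells, were compared with islets of wild-type (WT) littermates on one-color arrays, with 4 samples in each group. The mice were male, on the C57BL/6J background, and 8 to 12 weeks old when islets were isolated. All islets, WT included, were cultured for 8 h in RPMI medium with 10% fetal bovine serum and 200 mg/dL glucose before RNA was taken. In the transgene, mouse Ucp2 cDNA is driven by part of the rat insulin 2 promoter, with a rabbit β-globin intron. The origin of its polyadenylation sequence is not given in the sources used here. The sources do not say whether a sample came from 1 mouse or several, so errors measure the spread between samples.

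Prolactin and placental lactogen bind the prolactin receptor, which activates the kinase JAK2 and then the transcription factors STAT5A and STAT5B. In β-cells this route is known from pregnancy, when it raises Tph1, the rate-limiting enzyme of serotonin synthesis in peripheral tissues, together with β-cell proliferation. Cish and Socs2 are induced by STAT5 and feed back on the receptor. Some transgenes driven by insulin promoters carry a human growth hormone sequence, and human growth hormone can bind the prolactin receptor, which is the question that this group of genes addresses.

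The probe letters show what each value was measured with, and those that the largest differences and the Tph1 values rest on are printed here from the deposited table, 5′ to 3′. All 23 probes are 60 bases long. Probes whose letters were recognized as coding sequence are shown whole, and of the others 30 bases up to the 3′ end are shown. Capitals mark a polyadenylation signal near the 3′ end of the Prlr probe annotated to transcript variant 2.
Prlr A_52_P458279: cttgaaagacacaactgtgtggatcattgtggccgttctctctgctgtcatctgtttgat
Prlr A_66_P139387: gtggtctgctaacagatgttacaggatgtg
Prlr A_55_P2503206: ctcttagacctctttaAATAAAgattttct
Tph1 A_51_P458130: cacacctggaactgcttatcttctacttct
Tph1 A_55_P2934423: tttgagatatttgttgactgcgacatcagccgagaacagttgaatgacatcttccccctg
Tph1 A_52_P613868: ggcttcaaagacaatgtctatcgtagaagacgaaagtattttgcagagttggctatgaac
Stat5a A_66_P115018: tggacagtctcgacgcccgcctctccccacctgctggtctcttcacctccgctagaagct
Lonrf3 A_51_P479818: tgacttgaggtctcatttcaaatggttcag
Lonrf3 A_66_P115852: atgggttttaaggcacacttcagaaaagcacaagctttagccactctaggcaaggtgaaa
Serpina7 A_51_P162955: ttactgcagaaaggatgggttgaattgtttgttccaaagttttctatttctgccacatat

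Before the results, the arrays were checked. The Ucp2 probe A_51_P297105 was 75.4-fold higher in βUCP2Tg, with normalized log2 signals of 6.99 to 7.71 against 0.92 to 1.46, so the labels held on every array. The other Ucp2 probe, A_52_P90265, differed by 0.44 (1.36-fold, adjusted p = 0.0987) and was not called. Between 33191 and 36320 probes per array were well above background, and no spot was saturated. All WT arrays lay in one row of the slide and all βUCP2Tg arrays in the other, so slide position and genotype cannot be told apart. The β-cell genes Ins2 and Ins1 were the brightest of their marker list, at 9.15 and 8.50 in βUCP2Tg and 9.33 and 8.66 in WT. In whole islets, fewer cells of a type and less RNA per cell cannot be told apart.

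Values are log2 signals relative to each array's 75th percentile, so that 0 is the level of that percentile, and a difference is βUCP2Tg minus WT with the standard error of limma. Probes that cleared the background flag on 4 arrays or more entered the test, and a call needed a Benjamini-Hochberg p under 0.05 with a change of over 1.5-fold. Of the 23 probes, 21 were tested and 18 were well above background on all 8 arrays. Called higher was 1 probe, for Serpina7, against 0.206% of all 35363 probes tested, and called lower were 2 probes, for Lonrf3 and Prlr, against 0.204%. At the level of genes, 0.325% of the 17860 genes tested had a probe called higher and 0.325% had one called lower. The groups did not overlap for 4 member probes that were higher and 4 that were lower in βUCP2Tg, where the shares of all probes were 5.25% and 7.17%. The median difference of the 21 probes was 0.05, against -0.02 for all probes tested, and the median size of the difference was 0.45 against 0.21. Since the genes were selected with this contrast known, nothing is read from these shares. The limit itself falls among closely spaced probes, as 92 of the 145 probes called in all had an adjusted p over 0.04.

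**Figure D1:**
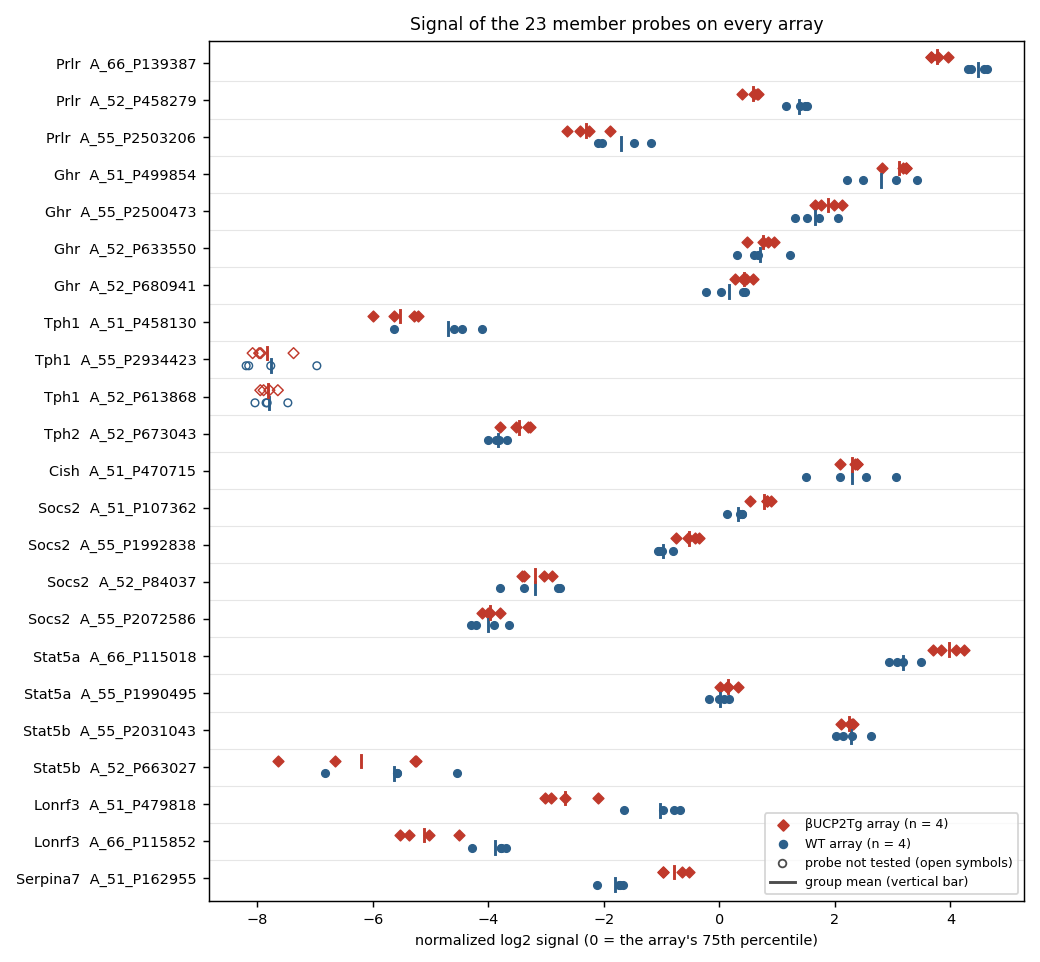
Normalized log2 signal of each of the 23 probes on every array, with diamonds for βUCP2Tg, circles for WT (4 arrays each), open symbols for the 2 probes not tested and vertical bars for group means. The Lonrf3 and Serpina7 groups lie apart in opposite directions, while the open Tph1 symbols lie at the bottom of the scale between -8.19 and -6.97.

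Of the receptors, Prlr was lower in βUCP2Tg on all 3 of its probes, and Ghr differed by 0.06 to 0.32 on its 4, none of them called. The Prlr probe A_52_P458279 read 0.59, 0.39, 0.64 and 0.68 in βUCP2Tg and 1.15, 1.39, 1.52 and 1.49 in WT. Every WT array lay above every βUCP2Tg array, and the difference of -0.81 (SE 0.12) was called. The brighter Prlr probe A_66_P139387, annotated to the same transcript variant 1, read 3.96, 3.67, 3.79 and 3.67 in βUCP2Tg against 4.64, 4.35, 4.31 and 4.57 in WT. These groups also did not overlap, and the difference of -0.69 (SE 0.12) was not called, though it was called in 8 of 23 alternative settings. Those settings include a limit on the unadjusted p, and 0.215% to 9.25% of all probes passed as lower in them. The probe for transcript variant 2, A_55_P2503206, read -1.90, -2.64, -2.25 and -2.42 in βUCP2Tg and -1.18, -2.10, -2.04 and -1.48 in WT, with overlapping groups and a difference of -0.60 (SE 0.24).

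The growth hormone receptor gene Ghr overlapped between groups on every probe. Its brightest probe, A_51_P499854, read 3.23, 3.18, 3.23 and 2.81 in βUCP2Tg and 3.41, 2.21, 2.48 and 3.06 in WT, a difference of 0.32 (SE 0.26). It ranged from 0.13 without WT replicate 2 to 0.63 without both WT replicate 1 and βUCP2Tg replicate 4. The other 3 Ghr probes differed by 0.06 to 0.26, and none of the 4 was called. The WT arrays spread more widely than the βUCP2Tg arrays on each of them, with an SD of 0.55 against 0.20 on the brightest probe.

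The transcription factor genes were measured on 2 probes each, and the probes of a gene did not give the same value. Stat5a probe A_66_P115018 read 4.23, 4.10, 3.84 and 3.71 in βUCP2Tg and 3.48, 3.18, 3.08 and 2.93 in WT. All βUCP2Tg arrays were above all WT arrays, and the difference of 0.80 (SE 0.16) was not called, though it was in 6 of 23 alternative settings. Those settings include the limit on the unadjusted p, and 0.424% to 6.73% of all probes passed as higher in them. The other Stat5a probe, A_55_P1990495, differed by 0.14 (SE 0.11) with overlapping groups. Stat5b differed by -0.03 (SE 0.14) on the bright probe A_55_P2031043, a value that turned to 0.00 when arrays were scaled on the median and to 0.05 with normexp background correction. The dim Stat5b probe A_52_P663027 was well above background on 2 βUCP2Tg and 3 WT arrays, and its difference over all 8 arrays was -0.58 (SE 0.64). Over the alternative settings it ranged from -0.98 to -0.099.

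The feedback inhibitors, which STAT5 induces, showed no called difference. Cish read 2.34, 2.38, 2.39 and 2.09 in βUCP2Tg and 1.49, 3.06, 2.53 and 2.09 in WT. The WT arrays reached both above and below the βUCP2Tg arrays, and the difference was 0.01 (SE 0.30). Without WT replicate 1, the lowest of the 8, it was -0.26. Socs2 probe A_51_P107362 read 0.90, 0.83, 0.83 and 0.52 in βUCP2Tg and 0.39, 0.14, 0.36 and 0.39 in WT, a difference of 0.45 (SE 0.11). Socs2 probe A_55_P1992838 read -0.42, -0.55, -0.36 and -0.76 against -0.80, -1.06, -1.001 and -1.05, a difference of 0.46 (SE 0.12). On both of these probes the βUCP2Tg group lay wholly above the WT group. The dim Socs2 probes A_52_P84037 and A_55_P2072586, annotated to other transcripts, had overlapping groups and differed by 0.00 (SE 0.25) and 0.05 (SE 0.16), and both turned negative with normexp correction, to -0.12 and -0.13.

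Serotonin synthesis starts with tryptophan hydroxylase, encoded by Tph1 and, in neurons, by Tph2. Tph1 was dim in both groups. Its probes A_55_P2934423 and A_52_P613868, both printed above, were well above background on 0 of 8 arrays and were not tested. The remaining Tph1 probe, A_51_P458130, was well above background on 3 βUCP2Tg and 4 WT arrays. It read -5.63, -5.29, -5.99 and -5.23 in βUCP2Tg and -5.63, -4.11, -4.46 and -4.60 in WT. WT replicate 1 lay at the level of βUCP2Tg replicate 1 while the other WT arrays lay above every βUCP2Tg array, and the difference of -0.83 (SE 0.32) was not called. It was -0.33 with normexp correction and was called in 3 of 22 alternative settings. These were the limit on the unadjusted p, leaving out WT replicate 1, and leaving out both WT replicate 1 and βUCP2Tg replicate 4. Of all probes, 6.71%, 5.67% and 9.25% passed as lower there. Tph2 read -3.80, -3.31, -3.28 and -3.53 in βUCP2Tg and -3.81, -4.00, -3.67 and -3.87 in WT. The groups overlapped, the difference of 0.36 (SE 0.14) was not called, and it was -0.02 with normexp correction.

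Lonrf3, which encodes a RING finger protein with a LON domain, and Serpina7, which encodes thyroxine-binding globulin, had the largest differences of the 10 genes. Lonrf3 probe A_51_P479818 read -2.91, -3.02, -2.68 and -2.11 in βUCP2Tg and -1.65, -0.79, -0.98 and -0.68 in WT. The groups did not overlap, and the difference of -1.65 (SE 0.26), a 3.14-fold lower signal, was called. Its dimmer probe A_66_P115852 read -5.03, -5.52, -5.37 and -4.51 against -4.28, -3.78, -3.70 and -3.78, and was well above background on 3 of 4 βUCP2Tg arrays. The groups again did not overlap, and the difference of -1.22 (SE 0.23) was not called. It was -0.45 with normexp correction and was called in 4 of 22 alternative settings. These were the limit on the unadjusted p and leaving out βUCP2Tg replicate 4, WT replicate 1 or both. Of all probes, 3.19% to 9.25% passed as lower there. Serpina7 read -0.65, -0.52, -0.98 and -0.98 in βUCP2Tg and -2.12, -1.74, -1.67 and -1.72 in WT, a called difference of 1.03 (SE 0.15) or 2.04-fold, with every βUCP2Tg array above every WT array.

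**Figure D2:**
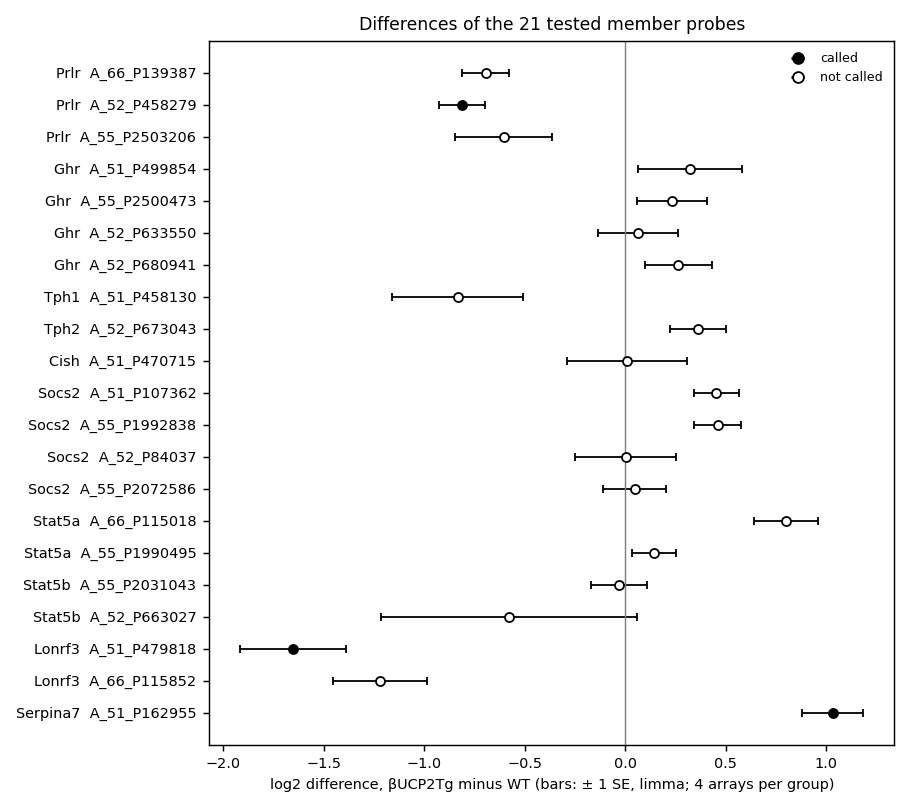
Log2 difference, βUCP2Tg minus WT, of the 21 tested probes with bars of 1 standard error from limma (4 arrays per group), filled where called. The called probes are Serpina7 at 1.03, Prlr A_52_P458279 at -0.81 and Lonrf3 A_51_P479818 at -1.65.

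The number of calls changed with single arrays. Leaving out βUCP2Tg replicate 1, 2 or 3 or WT replicate 2, 3 or 4 left 0 member probes called in either direction, when 0.0228% to 0.0659% of all probes were called higher and 0% to 0.017% lower. Leaving out βUCP2Tg replicate 4 gave 2 higher and 4 lower, against 0.994% and 3.19% of all probes. Leaving out WT replicate 1 gave 2 higher and 5 lower, against 5.14% and 5.67%. In both cases Serpina7, Lonrf3 A_51_P479818 and Prlr A_52_P458279 were among the probes called. Over all 23 alternative settings the call was lost in 10 for Serpina7, in 10 for Prlr A_52_P458279 and in 12 for Lonrf3 A_51_P479818. Prlr A_52_P458279 ranged from -0.92 to -0.75 over the alternative settings and Prlr A_66_P139387 from -0.76 to -0.60.

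**Figure D3:**
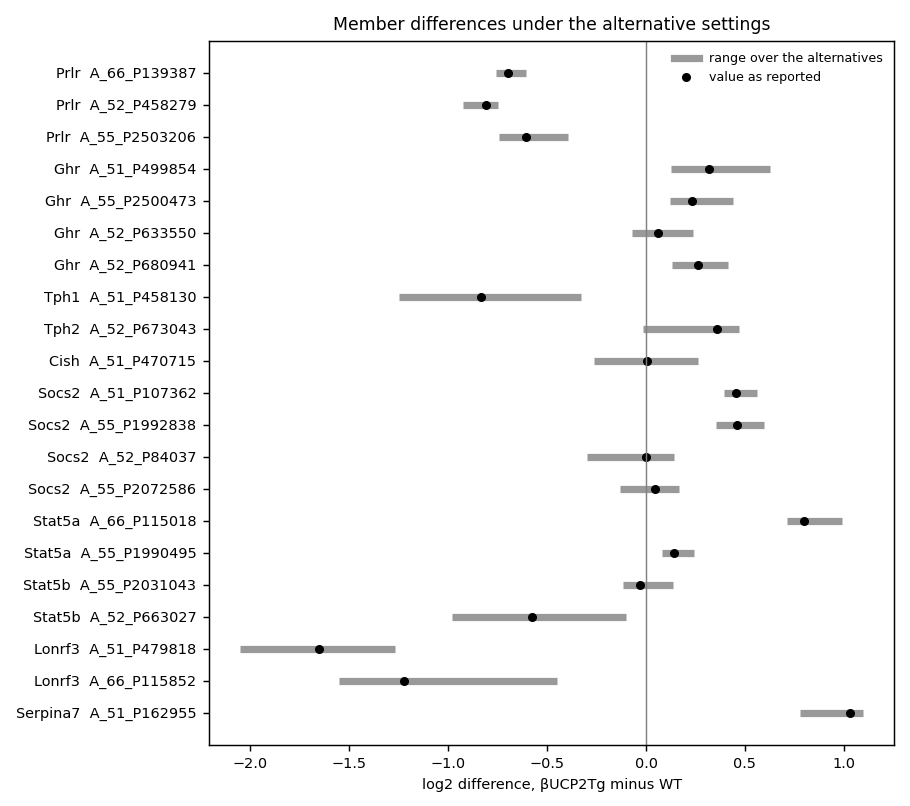
Log2 difference, βUCP2Tg minus WT, of the 21 tested probes as reported (points) and its range over the alternative settings (grey bars), which include leaving out each array. The ranges of all 3 Prlr probes, both Lonrf3 probes and Tph1 A_51_P458130 stay below 0, and those of Serpina7 and Stat5a A_66_P115018 stay above it.

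The other genes of the pathway were taken from 7 lists of 86 genes, of which 85 had a probe and 70 were tested. Across these, 1 gene was called higher and 0 were called lower by limma, and at an unadjusted p under 0.05 with the same fold limit the counts were 4 and 8 of 70, against 5.72% and 8.61% of all genes. The gene called was Cdkn1a, a cyclin-dependent kinase inhibitor, through its dim probe A_55_P1986282, which differed by 1.11 (SE 0.16, adjusted p = 0.0456). That difference was 0.07 with normexp correction, and the call was lost in 12 of 23 alternative settings. Its brightest probe A_51_P363947 differed by -0.21 (SE 0.19, adjusted p = 0.519), so the probes did not move together. The brightest probes of the 70 genes did not overlap between groups for 4 genes that were higher and 4 that were lower, 5.71% each, against 6.37% and 6.74% of all genes. Their median difference was 0.00, against 0.03 for all genes.

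Of the ligands, the probes for the mouse genes Prl and Gh were well above background on 0 of 8 arrays. Whether the Gh probe would detect human growth hormone RNA was not tested. The brightest ligands tested, Igf1 and the placental lactogen gene Prl3d1, differed by 0.09 (SE 0.12, adjusted p = 0.677) and -0.05 (SE 0.13, adjusted p = 0.823). The JAK-STAT genes had a list median of -0.32, with Ptpn11, a phosphatase, at -0.33 (SE 0.10, adjusted p = 0.109) and Stat3 at -0.63 (SE 0.22, adjusted p = 0.138). Among the inhibitors of the SOCS and PIAS families the list median was -0.06, and the brightest members Socs3 and Socs7 differed by -0.50 (SE 0.36, adjusted p = 0.415) and -0.19 (SE 0.11, adjusted p = 0.306). The Socs3 difference ranged from -0.98 to -0.27 over the alternative settings.

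The growth targets of STAT5 had a median of 0.00. Ccnd2, a cyclin used in β-cell division, differed by -0.20 (SE 0.10, adjusted p = 0.262), and Bcl2l1, a survival gene, by -0.54 (SE 0.16, adjusted p = 0.110). The Ccnd2 difference ranged from -0.27 to -0.0049 over the alternative settings. Islet genes known to be raised by lactogens had a median of 0.07 over 8 tested genes, and none was called.

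For serotonin after its synthesis, 7 of 17 handling and receptor genes were tested, with a median of 0.09. Ddc, which encodes the decarboxylase that makes serotonin, was bright at 5.28 in βUCP2Tg and 5.18 in WT, a difference of 0.11 (SE 0.14, adjusted p = 0.655). The Ddc difference ranged from 0.0015 to 0.24 over the alternative settings. Maob, a monoamine oxidase, differed by -0.25 (SE 0.13, adjusted p = 0.265). The serotonin transporter gene Slc6a4 and 8 receptor genes were among the genes not tested. The genes for the cofactor tetrahydrobiopterin, which tryptophan hydroxylase needs, had a median of 0.29 over 8 genes, and none was called. Gch1, the first enzyme of its synthesis, differed by -0.21 (SE 0.12, adjusted p = 0.305) and Qdpr by -0.12 (SE 0.14, adjusted p = 0.611).

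**Figure D4:**
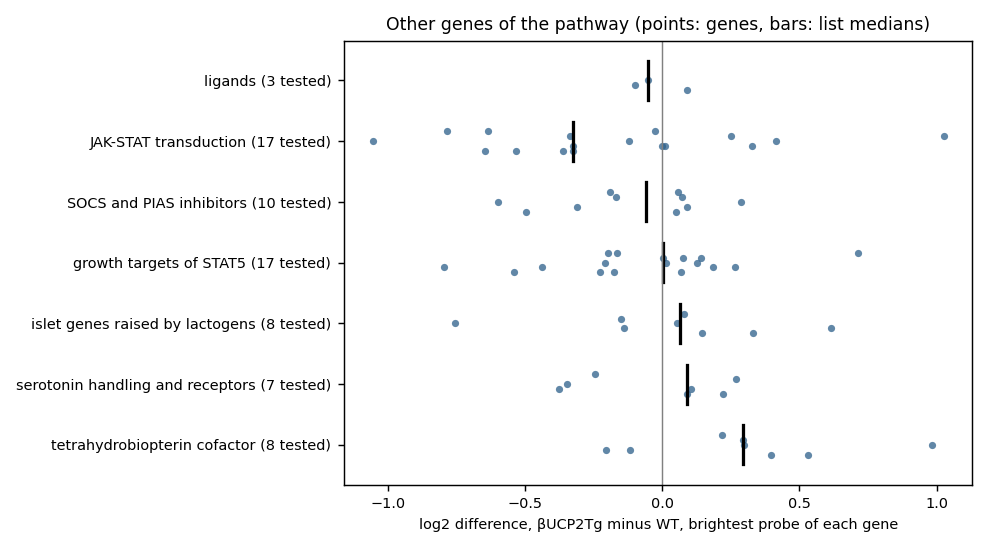
Log2 difference, βUCP2Tg minus WT, of the brightest probe of each of the 70 tested genes (points) in the 7 lists, with bars for list medians. Medians run from -0.32 for JAK-STAT transduction to 0.29 for the tetrahydrobiopterin genes, and each list but the ligands has genes on both sides by more than 0.1.

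Marker genes of other islet cells are given beside these values, and their part in the member differences was not tested. The mean level of the α, δ and PP list was higher by 0.27 and that of the endothelial list by 0.41, without overlap between groups (exact permutation over samples, two-sided, p = 0.0286 and 0.114 adjusted over 8 lists, and 4 against 4 samples can give no smaller value). The macrophage list was lower by 0.47 (exact p = 0.0571, adjusted 0.152), and its gene Cd14 was called lower by limma at -2.10 (SE 0.33, adjusted p = 0.0480). Within that list C1qa was at 0.66 (SE 0.15, adjusted p = 0.0823) with no overlap between groups and Lyz2 at 0.09 (SE 0.40, adjusted p = 0.913), so its genes did not share a direction. The acinar list varied most, with summed linear levels of 10.1 to 162 in βUCP2Tg and 15.2 to 291 in WT (exact p = 0.257, adjusted 0.411). The mast cell list, whose cells make serotonin through Tph1 in mice, differed by -0.02 (exact p = 0.914, adjusted 0.971). Its defining genes Cpa3, Mcpt4, Cma1 and Ms4a2 were not tested, since fewer than 4 arrays were well above background. The β-cell, ductal and fibroblast lists differed by 0.01, -0.39 and 0.33, with exact p of 0.971, 0.0857 and 0.486.

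The genes whose deviations from the group means followed a member most closely over the 8 arrays were named by Pearson correlation, as a description over few points that share the array. For Prlr A_66_P139387 they were Nfic, Suds3 and Lmnb1 (0.99 each). For Tph1 A_51_P458130 they were Zmynd15 (0.99), Dxo and Rala (0.98 each). For Serpina7 they were Zfp872, Olfr738 and Tpgs2 (0.98 each), and for Lonrf3 A_51_P479818 they were Plekho1 (1.00), Ctsl and Uck2 (0.99 each).

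STAT5 binds the letters TTCNNNGAA, which read the same on both strands, and this motif was counted in RefSeq promoter windows (GRCm38.p6, 250 bases before to 50 after each start). Of the 10 genes, 9 had a window, 16 in all, and 2 windows held the motif, against 8.3% of all 32851 windows. The windows are shown because Prlr and Cish are the members that hold it, with the motif in capitals.
Prlr, chr15:10223781-10223819, plus strand: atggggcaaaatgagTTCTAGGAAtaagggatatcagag
Cish, chr9:107296649-107296678, plus strand: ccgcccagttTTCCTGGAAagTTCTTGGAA
The Cish window held the motif at 2 places, and 0.457% of all windows held it at 2 or more, while the Prlr motif lay in 1 of its 3 windows. Tph1, Tph2, Ghr, Stat5a, Stat5b, Lonrf3 and Serpina7 had no match in these windows. A match is a description of the letters and not a site of binding.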

How the data were processed

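The authors hybridized RNA (integrity number of 7 or more) to Agilent SurePrint G3 Mouse GE 8×60K arrays and extracted them with Feature Extraction (9.1 in the submitters' processing notes, 10.7.3.1 in the file headers). The deposited scanner files hold intensity per spot, and the authors' deposited GeneSpring table holds normalized log2 values, gene symbols and probe sequences. Each of its 8 value columns equals the log2 signal minus 1 constant per array, within 0.001 for all 56305 single-spot probes, with column medians of -3.55 to -3.37. Which quantity that constant is was not settled. Its fold change and p columns were not used.

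Spots that were controls or carried an outlier flag were dropped. Each array's 75th percentile was subtracted from its log2 processed signal, and spots of a probe were averaged. A probe was measured on an array if at least 50% of its spots were well above background. Probes measured on 4 or more of 8 arrays were tested with limma 3.58.1 in R 4.3.3 and adjusted by Benjamini-Hochberg over all probes. The procedure was tested on simulated data. The precision is limited by the 4 arrays per group. Promoter windows came from RefSeq, and the array design uses another build, so probes were not placed.

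The members and lists were chosen with earlier results of these data known. Named are all members, list genes with a called probe, the 2 genes with the brightest probe in each pathway list, the 2 brightest marker genes where given, and Ucp2. Single values of some genes this rule names are not reported here. The genes Cd14, C1qa, Lyz2, Prl, Gh and Slc6a4 and the mast cell genes were named after their values were seen. Alternatives were other filters, scalings, background correction, tests, limits, a replicate block, and leaving out arrays.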

Additional observations from a re-analysis of the deposited data

Results flagged for a closer look

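In 7 of 84 groups of 4 arrays, 1 array lay far from the others by Dixon's ratio of its gap to the group's range, where 1 in 20 groups, or 4.2, do so by chance. For the members the ratios were 0.879 for Ghr A_51_P499854 in βUCP2Tg (replicate 4 at 2.81, the others at 3.18 to 3.23), 0.839 for Cish in βUCP2Tg (replicate 4 at 2.09, the others at 2.34 to 2.39) and 0.878 for Socs2 A_51_P107362 in WT (replicate 2 at 0.14, the others at 0.36 to 0.39). WT replicate 1 was the distant array for Lonrf3 A_66_P115852, with a ratio of 0.858 (-4.28 against -3.78 to -3.70), and for Serpina7, with 0.832 (-2.12 against -1.74 to -1.67). Among the cofactor genes the ratios in βUCP2Tg were 0.841 for Gch1 A_55_P2106175 (replicate 2 at 6.41, the others at 6.25 to 6.27) and 0.935 for Qdpr A_55_P2908598 (replicate 4 at 4.66, the others at 4.80 to 4.81).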

How the results depend on the processing

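Of the 21 tested member probes, 15 kept their direction under every alternative run. Alternatives that changed only the filter, the test or the limit left the difference as it was, so direction could not turn there. As reported, 1 member probe was called higher and 2 lower, and 1 pathway gene higher and 0 lower. With no filter on dim probes, with probes above background on at least 1 array, with the methods' t-test and with a replicate block, 0 member probes were called in either direction and 0 pathway genes higher, when 0.0318% to 0.0716% of all probes were called higher and 0.00283% to 0.0256% lower. With all 8 arrays required above background 3 member probes (0.435% of all probes) and 2 pathway genes were called lower, and with the 75th percentile of probes measured on all arrays 3 (0.215%) and 1 were. Quantile normalization gave 1 member probe lower (0.167% of all probes) and 0 pathway genes higher, and keeping outlier spots 1 member probe lower (0.187%). Normexp gave 2 member probes higher and 3 lower, against 0.653% and 1.65% of all probes, with 0 pathway genes higher and 3 lower. The intensity trend gave 2 member probes higher and 3 lower, against 0.424% and 0.648%, with 2 pathway genes lower. The added higher call was Stat5a A_66_P115018. The lower calls rose from 2 to 3 through Prlr A_66_P139387 under both of these settings, with all 8 arrays required, and with the 75th percentile of measured probes. At an unadjusted p under 0.05 there were 2 and 6 member probes and 4 and 8 pathway genes, when 3.61% and 6.71% of all probes and 5.72% and 8.61% of all genes passed. Same-numbered arrays of the groups deviated with correlations of 0.44, -0.05, -0.01 and -0.24. Only for replicate 1 was the most similar WT array the one with the same number. Whether the numbers mark pairs is not stated in the sources used here. The replicate block called 13 and 1 of all probes.

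Leaving out 1 array, or both βUCP2Tg replicate 4 and WT replicate 1, gave 0 to 3 member probes higher and 0 to 5 lower, and 0 to 5 pathway genes higher and 0 to 15 lower. With both left out, 6.73% and 9.25% of all probes were called. Over all alternatives, 8 to 2310 probes were called higher and 0 to 3176 lower, against 73 and 72 as reported. The cause was not tested.

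Directions turned for 6 member probes, for Prl3d1 and for the β-cell and mast cell lists. Over the left-out arrays the ranges were -0.070 to 0.24 for Ghr A_52_P633550, -0.26 to 0.26 for Cish, -0.30 to 0.14 for Socs2 A_52_P84037, -0.10 to 0.17 for Socs2 A_55_P2072586, -0.11 to 0.14 for Stat5b A_55_P2031043, -0.12 to 0.052 for Prl3d1, -0.074 to 0.17 for the β-cell list and -0.14 to 0.13 for the mast cell list. Normexp gave -0.016 for Tph2, -0.12 and -0.13 for the same Socs2 probes and 0.049 for Stat5b. Scaling on the median gave 0.0038 for Stat5b and 0.017 for the mast cell list, quantile normalization 0.012 for Prl3d1 and 0.031 for the mast cell list, and the deposited values 4.29e-05 for the mast cell list. Tph1 was tested on 1 dim probe only.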
